A study of Mus musculus with 16 samples.

Results

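Skeletal muscle RNA was followed across B16F10 tumors through 10 genes that serve contraction and its energy supply in fast muscle fibres, namely Acta1, Atp2a1, Ckm, Mylpf, Tnnt3, Tnni2, Myh4, Myh1, Actn3 and Ttn. They are 10 of the 45777 genes listed in the table and were taken by symbol. They had been chosen by their counts in these same tumors, which set some of them apart, so their levels are given as a description, with no test. The tumors were allografts of B16F10, a mouse melanoma cell line, grown under the skin of the abdominal flank of C57BL/6J mice (lean) or leptin-deficient C57BL/6J-ob/ob mice (obese), which were injected with the cells at 6 weeks of age. Both hosts were sampled pre-therapy and after etoposide (ETS), an inhibitor of topoisomerase II that was given at 20 mg/kg in 5 intraperitoneal injections, which gave 4 groups of 4 tumors. RNA came from tumor tissue, so each library holds RNA of the melanoma cells and of whatever host tissue was taken with them, and obesity in ob/ob hosts is tied to the loss of leptin. The labels number the tumors 1 to 4 in each group without stating that each came from a separate mouse, so p-values measure the spread between these tumors. Total counts ranged from 47199949 to 61655287 per tumor.

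In the sarcomere of skeletal muscle, myosin in the thick filament pulls on actin in the thin filament, and troponin on the thin filament releases this interaction when calcium rises. The calcium pump of the sarcoplasmic reticulum ends the contraction, and creatine kinase keeps ATP supplied. Fast and slow fibres carry different myosin heavy chains, with Myh4 in type IIb, Myh1 in type IIx, Myh2 in type IIa and Myh7 in slow type I fibres, while Myh3 and Myh8 are the embryonic and perinatal forms. Mouse skin lies on a thin sheet of skeletal muscle, the panniculus carnosus.

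Acta1, Myh4 and Myh1 were among the members that separated the tumors most clearly, and the 250 bases before the start of each are shown because they carry sequence motifs known from muscle promoters. The sequences are from RefSeq (GRCm38.p6), which gave a promoter for 7 of the 10 genes and none for Tnnt3, Tnni2 and Actn3. They cover chr8:123894776-123895025 (minus strand) for Acta1, chr11:67237562-67237811 (plus strand) for Myh4 and chr11:67199852-67200101 (plus strand) for Myh1, each written 5′ to 3′ along the gene. Capitals mark the E-box (CANNTG), the MEF2 motif, the CArG box and the TATA box (TATAAA), searched on both strands.
Acta1: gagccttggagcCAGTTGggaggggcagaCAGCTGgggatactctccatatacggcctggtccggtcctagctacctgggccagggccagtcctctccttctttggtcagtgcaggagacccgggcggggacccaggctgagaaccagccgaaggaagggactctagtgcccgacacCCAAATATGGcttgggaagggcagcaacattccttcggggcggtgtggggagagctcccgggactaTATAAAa
Myh4: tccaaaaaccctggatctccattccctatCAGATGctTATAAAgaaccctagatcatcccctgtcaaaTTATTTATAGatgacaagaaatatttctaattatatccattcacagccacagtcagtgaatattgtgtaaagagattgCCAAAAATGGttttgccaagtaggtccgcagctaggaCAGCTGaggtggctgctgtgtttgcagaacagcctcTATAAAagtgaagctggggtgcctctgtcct
Myh1: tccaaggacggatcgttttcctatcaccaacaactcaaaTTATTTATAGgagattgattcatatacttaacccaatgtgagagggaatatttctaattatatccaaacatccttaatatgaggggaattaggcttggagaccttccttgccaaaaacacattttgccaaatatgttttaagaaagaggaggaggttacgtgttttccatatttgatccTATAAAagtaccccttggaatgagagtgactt
The Acta1 promoter held 2 E-boxes, 1 CArG box and 1 TATAAA close to the start. The Myh4 promoter held 2 E-boxes, 1 CArG box, 1 MEF2 motif and 3 matches to TATAAA, and the Myh1 promoter held 1 MEF2 motif and 2 matches to TATAAA. In both myosin promoters 1 of the TATAAA matches lies on the opposite strand within the MEF2 motif. The other members with a promoter held fewer of these motifs. Atp2a1, Ckm and Mylpf had 1 E-box each and no MEF2 motif, CArG box or TATAAA, and Ttn had 1 E-box and 1 MEF2 motif. Over the same window, 66.2% of 32851 RefSeq mouse promoters held CANNTG, 12.4% held TATAAA, 2.92% a MEF2 motif and 1.47% a CArG box. Myh1 and Myh4, which lie next to each other in the myosin heavy chain cluster of chromosome 11, also shared the 20 bases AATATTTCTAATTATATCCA, beginning 165 and 163 bases before their starts. The Myh2 promoter was the only other of the 32851 that held this stretch. A match describes the letters only.

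Muscle RNA was present at high level in 5 of the 16 tumors. They were lean tumors 2 and 4 pre-therapy, lean tumors 1 and 2 after ETS and obese tumor 2 after ETS, and they are called muscle-holding tumors in what follows, a name that rests on counts for Myh1 and Myh4. No obese tumor pre-therapy was among them. Because these tumors stand apart within their own groups, each comparison of groups is given with all 16 tumors and again without these 5.

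In lean tumors 1 to 4 pre-therapy, the summed level of the 10 genes was 5.13, 252, 5.64 and 67.0 CPM (counts scaled to library size with TMM factors). In lean tumors after ETS it was 424, 249, 9.69 and 10.5 CPM. In obese tumors it was 10.7, 10.1, 6.96 and 6.36 CPM pre-therapy and 8.41, 612, 9.41 and 7.14 CPM after ETS. Each muscle-holding tumor was above every other tumor of the study. The group means were 82.5 ± 117 CPM for lean tumors pre-therapy, 173 ± 202 CPM for lean tumors after ETS, 8.51 ± 2.16 CPM for obese tumors pre-therapy and 159 ± 302 CPM for obese tumors after ETS (SD, n = 4 each). In every group that held a muscle-holding tumor, the SD was larger than the mean, and all 4 groups overlapped. In whole tumors, fewer muscle cells and less muscle RNA per cell cannot be told apart.

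**Figure D1:**
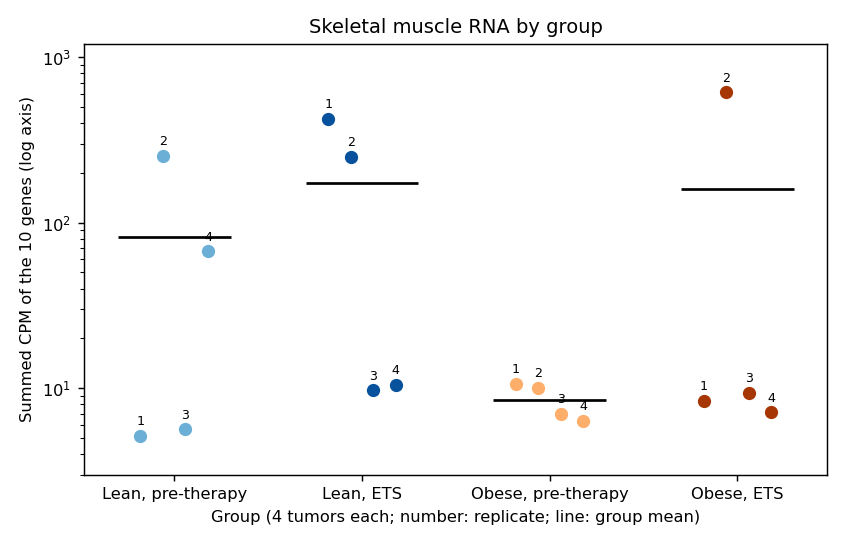
Summed CPM of the 10 skeletal muscle genes (log axis) in each tumor, with the 4 groups on the horizontal axis, each point a tumor labelled with its replicate number and each line a group mean. The 5 muscle-holding tumors sit between 67.0 and 612 CPM and the other 11 between 5.13 and 10.7 CPM.

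The share of all counts that fell on the 10 genes, which are only a part of muscle RNA, stayed small even in the highest tumor. It was 0.0577% in obese tumor 2 after ETS (Wilson 95% interval 0.0571 to 0.0584%) and 0.00711% in lean tumor 4 pre-therapy (0.00690 to 0.00733%), the lowest of the muscle-holding tumors. In the other tumors it ran from 0.000505 to 0.00110%. Such intervals cover counting error only. A count of 0 allows up to 3 counts, or 0.0460 to 0.0618 CPM depending on the tumor.

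Among the thin filament genes, Acta1 had the highest TPM, a level scaled to transcript length and library size, of all 10 members in each muscle-holding tumor. Acta1 (Entrez 11459, chr8:123891758-123894775), the alpha actin of skeletal muscle, had counts of 5, 3098, 0 and 821 in lean tumors 1 to 4 pre-therapy, 5506, 4064, 9 and 0 in lean tumors after ETS, 7, 0, 12 and 0 in obese tumors pre-therapy and 31, 6836, 7 and 0 in obese tumors after ETS. These counts correspond to 19.4 to 162 TPM in the muscle-holding tumors and to at most 0.616 TPM in any other. Tnnt3 (Entrez 21957, chr7:142498771-142516213), the fast form of the troponin subunit that binds tropomyosin, had 0, 1227, 0 and 246 counts in lean tumors pre-therapy, 1157, 733, 0 and 0 after ETS, 0, 0, 0 and 3 in obese tumors pre-therapy and 0, 1912, 0 and 0 after ETS. Tnnt3 was thus at 0 in 10 tumors, and its only counts outside the muscle-holding tumors were the 3 in obese tumor 4 pre-therapy. Tnni2 (Entrez 21953, chr7:142441816-142444410), the fast inhibitory troponin, had 16, 745, 0 and 158 counts in lean tumors pre-therapy, 401, 408, 0 and 0 after ETS, 0, 0, 2 and 0 in obese tumors pre-therapy and 8, 954, 0 and 12 after ETS. Tnni2 was higher in each muscle-holding tumor (7.63 to 46.2 TPM) than in any other (0 to 0.666 TPM).

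Thick filament genes included the members that were at exactly 0 in 11 tumors. Myh4 (Entrez 17884, chr11:67237812-67260447), the type IIb heavy chain, had 3774 and 900 counts in lean tumors 2 and 4 pre-therapy, 3446 and 719 counts in lean tumors 1 and 2 after ETS and 2313 counts in obese tumor 2 after ETS. Myh1 (Entrez 17879, chr11:67200102-67224577), the type IIx heavy chain, had 622, 227, 5984, 1663 and 6097 counts in the same tumors in the same order. Neither gene had a count in the other 11 tumors, so the tumors with Myh1 and those with Myh4 were the same. Mylpf (Entrez 17907, chr7:127208848-127214288), the fast regulatory light chain, was counted in all tumors, with 103, 732, 64 and 250 counts in lean tumors pre-therapy, 1841, 1394, 84 and 112 after ETS, 156, 134, 131 and 114 in obese tumors pre-therapy and 122, 1412, 161 and 115 after ETS. Outside the muscle-holding tumors Mylpf stood at 2.89 to 8.02 TPM, the highest floor of the 10 genes. Its annotated span overlaps Septin1, and no source states if reads were counted by strand, so reads of Septin1 could add to this floor, which was not tested.

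**Figure D2:**
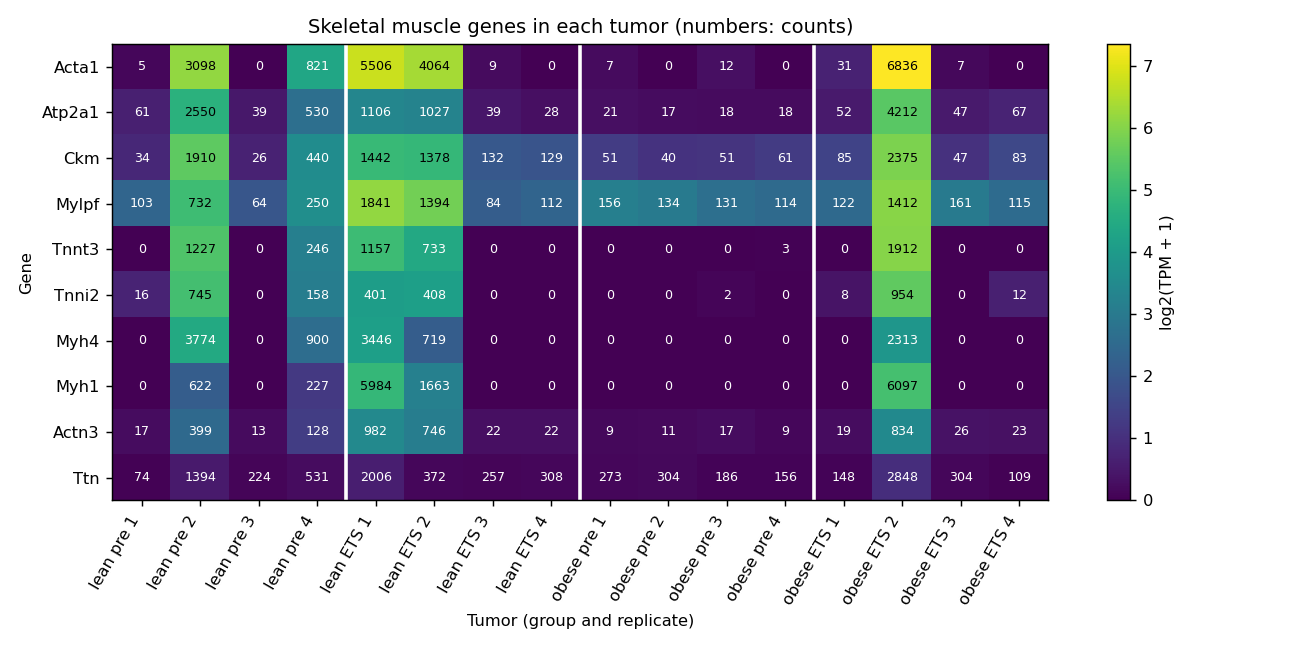
The 10 genes (rows) in the 16 tumors (columns, in 4 groups parted by white lines), with log2(TPM + 1) as colour and the count printed in each cell. Acta1 reaches 6836 counts in obese tumor 2 after ETS, and Myh4 and Myh1 are at 0 in 11 columns while Mylpf, Ckm, Atp2a1, Actn3 and Ttn have counts in all 16.

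The calcium pump and the energy gene had a low level in all tumors and a high one in the muscle-holding tumors. Atp2a1 (Entrez 11937, chr7:126445858-126463103), the fast-fibre calcium pump of the sarcoplasmic reticulum, had 61, 2550, 39 and 530 counts in lean tumors pre-therapy, 1106, 1027, 39 and 28 after ETS, 21, 17, 18 and 18 in obese tumors pre-therapy and 52, 4212, 47 and 67 after ETS. Its span overlaps Rabep2, as those of Ckm, Tnnt3 and Myh1 overlap A930016O22Rik, Prr33 and Myhas. Ckm (Entrez 12715, chr7:19411094-19421583), the muscle creatine kinase, had 34, 1910, 26 and 440 counts in lean tumors pre-therapy, 1442, 1378, 132 and 129 after ETS, 51, 40, 51 and 61 in obese tumors pre-therapy and 85, 2375, 47 and 83 after ETS. Among the tumors without Myh1 and Myh4 counts, Ckm was highest in lean tumors 3 and 4 after ETS (3.03 and 2.72 TPM), against 0.754 and 0.640 TPM in lean tumors 1 and 3 pre-therapy.

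Of the Z-disc and elastic filament genes, Actn3 separated the tumors more widely than Ttn. Actn3 (Entrez 11474, chr19:4861216-4877909), the alpha-actinin of fast fibres, had 17, 399, 13 and 128 counts in lean tumors pre-therapy, 982, 746, 22 and 22 after ETS, 9, 11, 17 and 9 in obese tumors pre-therapy and 19, 834, 26 and 23 after ETS. Ttn (Entrez 22138, chr2:76703980-76982557), which encodes titin, the spring that spans the sarcomere from Z-disc to M-line, had 74, 1394, 224 and 531 counts in lean tumors pre-therapy, 2006, 372, 257 and 308 after ETS, 273, 304, 186 and 156 in obese tumors pre-therapy and 148, 2848, 304 and 109 after ETS. The 372 Ttn counts of lean tumor 2 after ETS lay close to the 308 of lean tumor 4 after ETS, which had no Myh1 or Myh4 count. Per length, Ttn was the lowest member in the muscle-holding tumors, at 0.102 to 0.932 TPM.

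The rule that a gene must have a count in every tumor before it is tested, which the study's methods used, removed Acta1, Tnnt3, Tnni2, Myh4 and Myh1 and kept Atp2a1, Ckm, Mylpf, Actn3 and Ttn. The members with the sharpest contrast between tumors were thus outside any test of this kind.

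The muscle-holding tumors differed in which fast fibre genes they held. Of the summed TPM of Myh1, Myh2, Myh3, Myh4, Myh7 and Myh8, Myh4 made up 83.0% in lean tumor 2 and 77.0% in lean tumor 4 pre-therapy, but 31.5% in lean tumor 1 and 25.0% in lean tumor 2 after ETS and 23.9% in obese tumor 2 after ETS. Myh1 made up 13.7% and 19.4% in the pre-therapy tumors and 54.8%, 57.9% and 63.0% in the ETS tumors. Type IIb myosin thus led before therapy and type IIx myosin led after ETS, in 2 and 3 tumors. Myh2, the type IIa form, made up 1.32% and 0.782% in the pre-therapy tumors (61 and 10 counts) and 10.5%, 13.0% and 10.9% in the ETS tumors (1156, 376 and 1063 counts). Myh8 was between 1.12 and 2.24% in all 5. Pre-therapy and ETS muscle-holding tumors were different tumors with different treatments, and no obese tumor pre-therapy held the RNA, so the treatment and the piece of muscle taken with each tumor cannot be told apart.

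**Figure D3:**
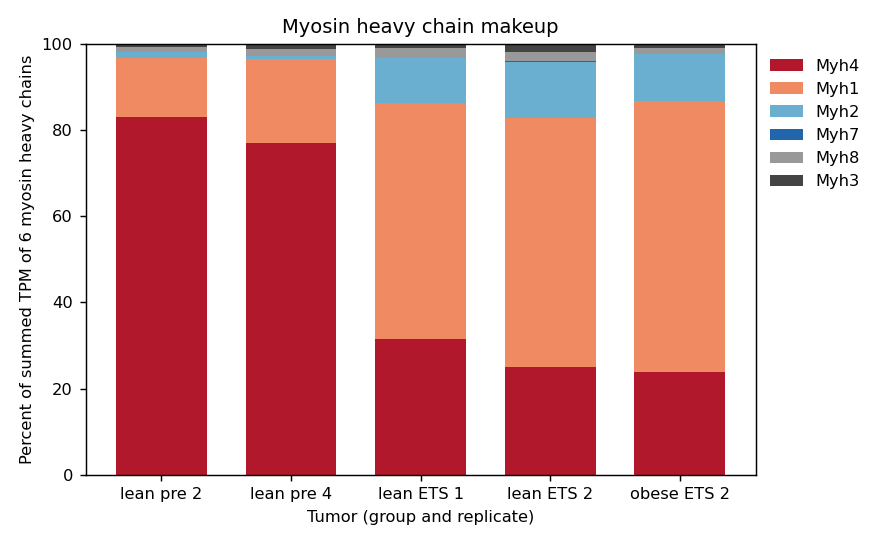
Stacked bars give the percent of the summed TPM of 6 myosin heavy chain genes that each gene took in the 5 muscle-holding tumors. Myh4 takes 83.0 and 77.0% in the pre-therapy tumors and 23.9 to 31.5% in the ETS tumors, where Myh1 takes 54.8 to 63.0%.

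Relative to Acta1, other genes were split in the same way. For each 100 TPM of Acta1, Ckm stood at 64.6 and 56.1 TPM in the lean pre-therapy tumors 2 and 4, and at 27.4, 35.5 and 36.4 TPM in lean tumors 1 and 2 and obese tumor 2 after ETS. Tnni2 stood at 49.2 and 39.4 TPM against 14.9, 20.5 and 28.6 TPM. Pvalb, the calcium buffer parvalbumin of the fastest fibres, stood at 18.2 and 16.1 TPM against 5.33, 4.81 and 4.12 TPM. All 3 genes were higher relative to Acta1 in both pre-therapy tumors than in any of the ETS tumors. In the other direction, Xirp2, an actin-binding protein, had 0.488 and 0.645 TPM per 100 TPM of Acta1 pre-therapy and 4.75, 1.36 and 2.74 TPM after ETS. Csrp3, the muscle LIM protein of the Z-disc, had 0.929 and 2.66 TPM pre-therapy and 6.92, 4.51 and 5.41 TPM after ETS, and Mybph, a myosin-binding protein, had 0.218 and 0.354 TPM against 2.30, 1.55 and 1.33 TPM. The genes compared with Acta1 here were picked after their values were seen. Not every gene followed the split, since Mylpf stood at 46.1 and 59.0 TPM per 100 TPM of Acta1 pre-therapy and at 65.4, 66.9 and 40.5 TPM after ETS. These tumors were set apart by their muscle counts, so the ratios carry no test.

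The genes most like the members across the 16 tumors were muscle genes as well. By Pearson's r of log2 CPM with the mean of the 10 members, the closest were Mybpc1 (0.992), Myo18b (0.989), Myot (0.989), Myh8 (0.987), Tnnc2 (0.986), Xirp2 (0.980), Myom2 (0.979), Mb (0.974), Mybpc2 (0.970) and Ryr1 (0.961), out of 14756 genes with a mean of at least 0.5 CPM. Because the tumors fell into separate sets, r here describes that split and carries no p. Mybpc1, which encodes a myosin-binding protein C, had 39 to 897 counts in the muscle-holding tumors and 0 in the other 11. Myoglobin (Mb), whose span overlaps Apol6, had 58 to 220 counts in the muscle-holding tumors and 0 to 10 elsewhere. Myo18b was the only one of these 10 genes outside the muscle lists.

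Markers of other cell types were read beside the members. Keratinocyte genes reached 155 TPM in sum in obese tumor 2 after ETS and 20.1 TPM in lean tumor 2 pre-therapy, against 1.43 to 4.02 TPM in each of the other 14. In obese tumor 2 after ETS, Krt14 and Krt5 of basal keratinocytes had 2276 and 1549 counts, and Krt1 and Lor of the upper epidermis had 816 and 718. Lean tumor 2 pre-therapy had 15 counts of Krt14 and 204 of Krt5, while Krt1 and Lor were at 0. Of its 20.1 TPM, 14.7 TPM came from Sfn, which had counts in all 16 tumors. In lean tumor 4 pre-therapy and in lean tumors 1 and 2 after ETS, Krt14, Krt5, Krt1 and Lor were all at 0, although the muscle genes summed to 71.0, 322 and 230 TPM there. Basal keratin genes thus had counts in 2 of the 5 muscle-holding tumors and Krt1 and Lor in 1, and their part in any comparison was not tested. Krt1 and Lor were picked after their values were seen.

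Summed adipocyte genes ranged from 42.9 to 219 TPM in the muscle-holding tumors and from 21.4 to 582 TPM in the others, with Fabp4 reaching 537 TPM in an obese tumor after ETS. Fibroblast and tendon genes ranged from 11.2 to 99.6 TPM and from 1.96 to 223 TPM, with Dcn at up to 158 TPM, and smooth muscle genes from 86.9 to 96.4 TPM and from 60.6 to 121 TPM. Nerve genes, led by Mbp, ranged from 110 to 319 TPM and from 86.0 to 711 TPM. All these ranges, which pool lean and obese hosts, overlapped. Within lean tumors after ETS, adipocyte genes summed to 43.5 and 45.0 TPM in muscle-holding tumors 1 and 2, against 22.7 and 21.4 TPM in tumors 3 and 4. Fibroblast and tendon genes, at 11.2 and 37.3 TPM, were also higher in both than in tumors 3 and 4. In lean tumors pre-therapy and obese tumors after ETS, both lists overlapped. This split was seen after the values were known and was not tested. The labelled cell type was checked with 8 melanocyte genes led by Tyrp1, Dct and Pmel, which summed to 16498 to 20969 TPM in the muscle-holding tumors and to 9129 to 22038 TPM in the others.

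**Figure D4:**
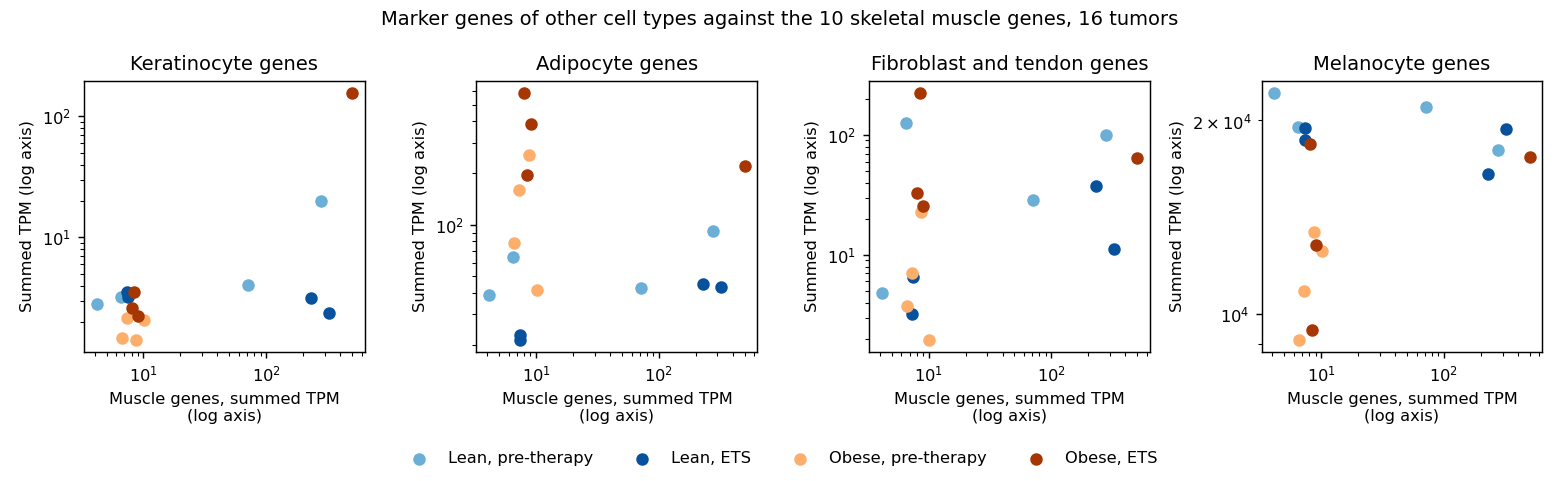
Summed TPM of keratinocyte, adipocyte, fibroblast and tendon, and melanocyte genes (vertical, log axes) against summed TPM of the 10 muscle genes (horizontal, log axis), each point a tumor coloured by group. Keratinocyte genes stand out at 155 TPM in the obese ETS tumor with the most muscle RNA and at 20.1 TPM in a lean pre-therapy tumor.

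The muscle stem cell gene Pax7 had 4 counts in obese tumor 1 after ETS and 0 in all others, and Myf5 was at 0 in all 16 tumors. Myod1 had 4 counts in lean tumor 2 pre-therapy and none elsewhere. Myh3, the embryonic heavy chain, was different, with 15 to 225 counts across all 16 tumors and the highest count in obese tumor 3 after ETS, which had no Myh1 or Myh4 count. Myog had 6 and 0 counts in lean tumors 2 and 4 pre-therapy. It had 19 and 6 counts in lean tumors 1 and 2 after ETS and 16 in obese tumor 2 after ETS. Myf6 had 19, 0, 51, 16 and 31 counts in the same tumors in the same order. Pax7, Myf5, Myod1, Myog and Myf6 were named after their values were seen.

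Further genes of skeletal muscle were then counted in the comparisons of groups. Of 93 other muscle genes in 5 lists, 34 had counts in every tumor and were tested, and 59 were left out. Of the 93, 29 (31.2%) were higher in each muscle-holding tumor than in any other, against 0.120% of all genes. The tumors were set apart by muscle counts, so these shares carry no test. Of the genes called below for ETS with all tumors, 0 of 15 in lean tumors were among the 29. In obese tumors 2 of 15 were, Casq1 and Ryr1. After ETS in lean tumors, 14 of the 34 rose and 1 fell (edgeR quasi-likelihood test, adjusted p under 0.05), or 44.1%, while 43.8% of all 16209 genes tested were called. The list's share of calls in either direction was thus near the background. Its calls were mostly rises, 14 of the 34, whereas 21% of all genes rose. Its median log2 fold change was 0.88, against -0.015 over all genes tested. Without the 5 muscle-holding tumors, 9 rose and none fell, where 10.5% of 16546 genes were called, and 8 of the 15 genes were called again. The list's median log2 fold change was then 0.75. Only 2 lean tumors per group remain in that fit.

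In obese tumors after ETS, 15 of the 34 genes rose and none fell, or 44.1%. Of all genes, 40.2% were called and 21.2% rose. The list's median log2 fold change was 1.06. Without the muscle-holding tumors, 11 rose, where 29.0% of all genes were called, and the median was 0.53. All 11 were among the 15. Leaving out obese tumor 2 after ETS alone gave 7 calls, and leaving out obese pre-therapy tumor 1, 3 or 4 gave 9, 9 and 8. Obese tumor 2 after ETS, the only muscle-holding tumor in this comparison, set the size of several changes. Ryr1, the calcium release channel, had 33, 30, 33 and 20 counts in obese tumors pre-therapy and 73, 600, 45 and 58 after ETS. Its log2 fold change was 2.81 ± 1.02 (SE; adjusted p = 0.0392, edgeR) with all tumors and 0.93 without the 5 (adjusted p = 0.0348, edgeR). Ldb3, a Z-disc protein, went from 3.22 ± 0.99 to 1.93 on the same scale and stayed past the threshold, and Casq1, the calcium buffer of the fast reticulum, from 2.48 ± 0.91 to 1.11 and did not (adjusted p = 0.0412 and 0.0563, edgeR). Ryr1, Ldb3 and Casq1 were named here after their values were seen.

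**Figure D5:**
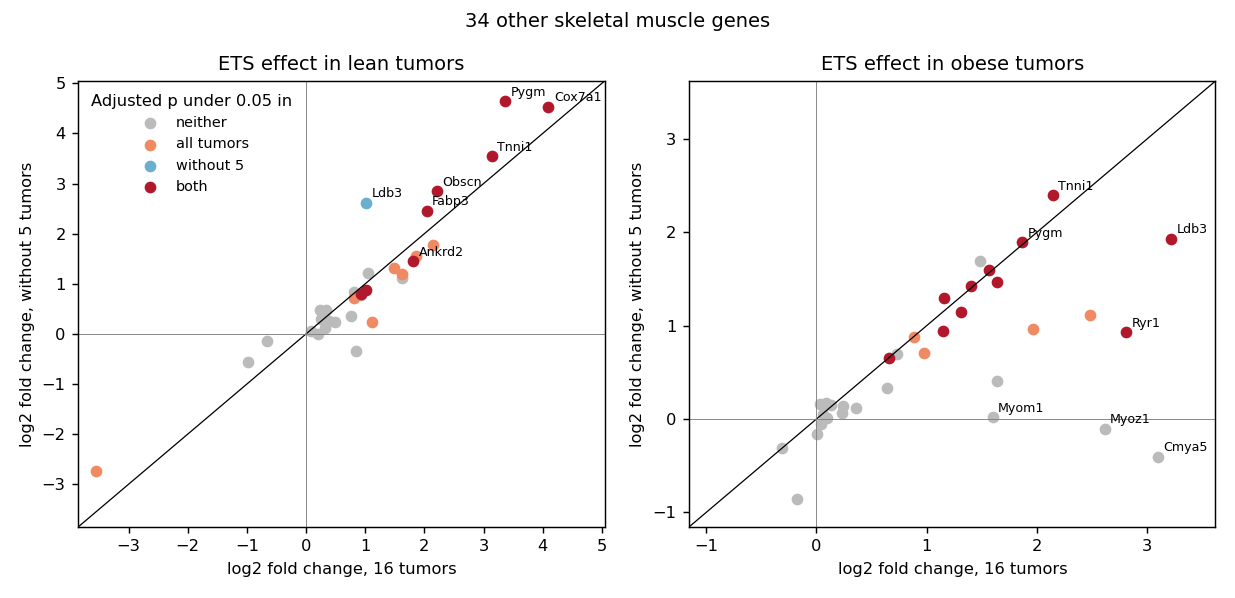
Log2 fold change of 34 other skeletal muscle genes between ETS and pre-therapy in lean (left) and obese (right) tumors, fitted with 16 tumors (horizontal) and without the 5 muscle-holding tumors (vertical), coloured by which fit called the gene, with the line of equality drawn. In obese tumors Ryr1 falls from 2.81 to 0.93, while Tnni1 and Pygm lie near the line.

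The genes with the lowest p in these comparisons also changed in the tumors without Myh1 and Myh4 counts. Cox7a1, the muscle and heart form of a cytochrome c oxidase subunit, had 21, 26, 13 and 31 counts in lean tumors pre-therapy, 304, 334, 333 and 385 after ETS, 101, 94, 178 and 167 in obese tumors pre-therapy and 422, 326, 478 and 237 after ETS. After ETS it rose in lean tumors by 4.10 ± 0.29 on the log2 scale (SE; adjusted p = 5.52e-07, edgeR) and in obese tumors by 1.40 ± 0.25 (adjusted p = 7.33e-04, edgeR), and the ETS groups did not overlap the pre-therapy groups. The difference of these effects was 2.70 ± 0.37 (adjusted p = 1.92e-04, edgeR) and 3.11 without the muscle-holding tumors (adjusted p = 0.00534, edgeR). Pygm, the muscle glycogen phosphorylase, rose by 3.37 ± 0.53 in lean tumors (adjusted p = 2.18e-04, edgeR). Its level in lean tumors was 1.81, 11.3, 1.42 and 3.71 CPM pre-therapy, highest in the muscle-holding tumors 2 and 4, and 48.7, 59.8, 42.8 and 37.5 CPM after ETS. Tnni1, the slow inhibitory troponin, rose by 3.14 ± 0.44 in lean and by 2.14 ± 0.40 in obese tumors (adjusted p = 9.36e-05 and 9.58e-04, edgeR) and was not highest in the muscle-holding tumors, since its highest level was 14.8 CPM in obese tumor 4 after ETS. Pfkm, the muscle phosphofructokinase, rose by 1.01 ± 0.12 and Jph2, a junctophilin, by 0.92 ± 0.15 in lean tumors (adjusted p = 1.68e-05 and 2.24e-04, edgeR). In obese tumors Jph2, Tnnt2 and Ankrd2 rose by 0.66, 1.56 and 1.14 on the log2 scale, and these 3 were called again without the muscle-holding tumors.

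Pre-therapy, obese tumors differed from lean tumors in 9 of the 34 genes, or 26.5%, with 8 higher and 1 lower. Over all genes 26.4% were called, so the list's share was near the background. Without the muscle-holding tumors 9 were higher, 6 of them the same, against 10.9% of all genes. Cox7a1, Pfkm, Fabp3, Tnni1 and Myh3 were higher in obese tumors by 2.77, 0.82, 2.26, 2.69 and 2.47 on the log2 scale. Fabp3 is a fatty acid binding protein of muscle and heart. All 5 were called in both fits.

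After ETS, 5.58% of all genes were called between obese and lean tumors. The list's share was near that, since 2 of the 34 genes, or 5.88%, were higher in obese tumors and none lower. They were Tnni1 (1.69 ± 0.40, adjusted p = 0.0279, edgeR) and Neb (2.90 ± 0.70, adjusted p = 0.0320, edgeR), the gene of nebulin, a ruler of the thin filament. Neb had 1235, 202, 332 and 224 counts in lean tumors and 713, 1892, 3913 and 8801 counts in obese tumors after ETS, and its highest count was in a tumor without Myh1 or Myh4 counts. Without the muscle-holding tumors the log2 fold changes were larger, at 2.07 for Tnni1 and 3.93 for Neb, but neither was called (adjusted p = 0.0787 and 0.0674, edgeR). In that fit, which holds fewer tumors, 0.0121% of all genes were called. An unadjusted p under 0.05 was found for 9 of the 34 and for 2983 of all 16546 genes. With all tumors, both edgeR's exact test and DESeq2 called 5 of the 34.

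The effect of ETS differed between lean and obese tumors for 3 of the 34 genes, or 8.82%, where 16.4% of all genes were called. Besides Cox7a1 they were Pfkm, with a difference of 0.87 ± 0.16 (adjusted p = 0.00185, edgeR), and Cdh15, the M-cadherin of muscle precursors, with -2.15 ± 0.62 (adjusted p = 0.0280, edgeR). Without the muscle-holding tumors the differences were 0.72 and -1.86, and neither was called (adjusted p = 0.109 and 0.207, edgeR), where 6.7% of all genes were called. Cox7a1 and Pygm were the 2 muscle genes called in that fit.

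Since muscle oxidises fatty acids and the study concerned fatty acid oxidation, 20 mitochondrial beta-oxidation genes were counted in the same fits. In lean tumors after ETS, 12 rose and 1 fell, where 43.8% of all genes were called, and without the muscle-holding tumors 5 rose and none fell, where 10.5% of all genes were called. The calls over all genes thus fell as well when these tumors were left out. The gene that fell in lean tumors was Cpt1b, of the carnitine palmitoyltransferase 1 family. It stands in both this list and the 34 muscle genes, where it was also the 1 that fell. Its change on the log2 scale was -3.55 ± 0.94 (SE; adjusted p = 0.00728, edgeR). Without the muscle-holding tumors it was -2.73 and was not called (adjusted p = 0.260, edgeR). Cpt1b was named after its values were seen. In obese tumors 11 rose and 1 fell, where 40.2% of all genes were called. Without the muscle-holding tumors 9 rose and 1 fell, where 29.0% were. Over all 16 tumors their median log2 fold change was 0.44 (lean) and 0.37 (obese), and without the 5 it was 0.35 and 0.37. Their levels came to 1507 to 2136 TPM in the muscle-holding tumors and 1461 to 2273 TPM in the others in sum. Pre-therapy, 9 of the 20 were higher in obese than in lean tumors (26.4% of all genes called). Without the 5 tumors 0 were called (10.9% of all genes), and their median log2 fold change went from 0.34 to 0.24. After ETS 3 were higher in obese tumors, Acadl, Cpt1a and Acsl1 (5.58% of all genes called). The ETS effect differed for 3 (16.4% of all genes called), 1 higher and 2 lower in lean than in obese tumors. The effect was higher in lean tumors for Hadh and higher in obese tumors for Cpt1a and Acsl1. These genes were named after their values were seen. Both the count after ETS and the count for the ETS effect were 0 without the 5 tumors (0.0121% and 6.7% of all genes). Fewer tumors enter that fit.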

How the data were processed

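RNA of 16 B16F10 tumors was sequenced by the authors as paired-end TruSeq Stranded mRNA libraries, aligned to mm10 with HISAT (HISAT2 2.1.0 in the submitters' processing notes) and quantified per gene with StringTie 2.1.3b. The counts deposited by the authors are whole, unnormalized estimates that StringTie made from coverage. The TPM values were made by the authors in the same step, and the deposited FPKM values were not used. Whether counting used strand is not given in the sources used here. Host age, dose and number of injections come from the study's methods, and groups from the labels.

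The 10 genes and all gene lists were chosen with earlier results of these data known. All 10 are described in every tumor. Other names are the 3 genes of highest mean TPM in a list, up to 5 muscle genes per comparison with the lowest p under the adjusted limit of 0.05, 6 myosin heavy chains and the 10 genes most like the members; names picked after their values were seen are marked as such. CPM used TMM factors. Genes at 0 in at least 1 tumor (29568 of 45777) were left out, following the study's methods, and 16209 were tested with edgeR 4.0.16 (R 4.3.3, quasi-likelihood, a mean per group, Benjamini-Hochberg over all tested genes). Likeness used log2 CPM with a prior count of 2. Alternatives were DESeq2 1.42.0, its size factors, other filters, edgeR's exact test on counts with 1 added, limma 3.58.1 on log2(TPM + 1), a replicate block and each tumor left out. The fit without 5 tumors was added after the data were seen. Tested on simulated counts for the ETS effect in lean tumors over 15954 genes, the quasi-likelihood fit recovered 57 of 99 genes changed 2-fold and 96 of 97 changed 4-fold, with 7 false calls. The simulation gave every gene the same dispersion (biological coefficient of variation 0.233), changed 200 genes and put in no outlying tumor. Its rates therefore do not cover genes that stand far apart in single tumors. No 2 tumors of the same group agreed within sampling noise. Coordinates are GRCm38.p6, the assembly of mm10.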

Additional observations from a re-analysis of the deposited data

Results flagged for a closer look

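Within groups of 4, a tumor far from the other 3 was looked for by its gap to the nearest tumor as a share of the group's range, over 42 groups of values for the 10 genes and their sum. Chance gives such a gap in about 1 in 20 groups, but the genes were chosen by these counts, so the gaps are a description and not a test. Obese tumor 2 after ETS stood apart for the summed CPM, with a gap of 0.996 of the range, and in TPM for all 10 genes. The gap was 1 for Tnnt3, Myh4 and Myh1, 0.996 for Acta1, 0.995 for Atp2a1, 0.989 for Actn3, 0.988 for Tnni2, 0.984 for Ckm, 0.962 for Mylpf and 0.935 for Ttn. Lean tumor 1 after ETS stood apart for Ttn (0.947). Obese tumor 4 pre-therapy stood apart for Tnnt3 (1) and obese tumor 3 pre-therapy for Tnni2 (1), which rest on 3 and 2 counts, at or below the 3 counts that a count of 0 allows.

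Among the other muscle genes named, the effect of ETS differed between lean and obese tumors (lean minus obese, log2 scale, interaction in the edgeR fit) by 2.70 for Cox7a1, 0.87 for Pfkm and -2.15 for Cdh15.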

How the results depend on the processing

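Another scaling (total counts or DESeq2 size factors) moved no group mean of the summed CPM by more than its SD. In groups with a muscle-holding tumor the SD exceeded the mean, so this limit could hardly be passed there. Obese tumor 2 after ETS, the highest, was at 577 CPM by total counts, 612 CPM with TMM and 613 CPM with DESeq2 size factors. Leaving out each tumor in turn gave means of 25.9 to 108 CPM in lean tumors pre-therapy, 89.7 to 228 CPM in lean tumors after ETS, 7.79 to 9.23 CPM in obese tumors pre-therapy and 8.32 to 210 CPM in obese tumors after ETS, lowest without obese tumor 2. The number of other muscle genes called then ran from 14 to 17 for ETS in lean tumors, 7 (without obese ETS tumor 2) to 16 for ETS in obese tumors, 6 to 10 for obese against lean pre-therapy, 0 to 3 after ETS and 2 to 4 for the difference of the effects. For ETS in obese tumors it was also 9, 9 and 8 without obese pre-therapy tumor 1, 3 or 4, and after ETS 1 without lean tumor 1 and 0 without lean tumor 2, 3 or 4 or obese tumor 4. Beta-oxidation calls stayed at 13 in lean and ran from 9 to 14 in obese tumors. Without the 5 muscle-holding tumors, a setting added after the data were seen, 9 muscle genes and 5 beta-oxidation genes were called in lean tumors and 0 muscle genes between obese and lean tumors after ETS. limma on TPM called 9 in obese tumors. After ETS the exact test and DESeq2 each called 5, and DESeq2 called 5 for the difference of the effects. The cause of these shifts was not tested, although fewer tumors enter some fits. Over all genes, the calls without the 5 tumors were 1730 of 16546 in lean tumors, 1805 for obese against lean pre-therapy, 2 after ETS and 1109 for the difference, against 7099, 4280, 904 and 2660 of 16209. Tumors with equal replicate numbers were not treated as pairs, since no label says that a number marks a shared batch and the correlation of their deviations was above 0.1 in every pair of no comparison (0.033 to 0.45 for ETS in lean tumors). With the number as a replicate block the muscle calls were 15, 13, 10, 3 and 3. For the up to 5 muscle genes of lowest p in each comparison, 458 values kept direction and call, and 19 kept direction but lost the call, for Cdh15, Neb, Tnni1 and Pfkm. No value changed sign. Depth limits Tnnt3 and Tnni2 outside the muscle-holding tumors, where counts reached at most 3 and 16.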
